A study of Rattus norvegicus with 3 samples.

Results

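The chemokine genes Ccl2, Ccl7, Ccl11, Ccl5, Cxcl1, Cxcl10, Cxcl13, Cxcl14, Cxcl16 and Cx3cl1 were followed across every labelled cell group of the Lewis rat thymus. They are 10 of the 34034 features of each droplet library and were chosen by name, as chemokines of stromal and myeloid cells. One library held CD45-negative stroma, enriched by magnetic separation and flow sorting from tissue that Liberase TH and DNase I had dissociated, and the other held thymocytes released by collagenase D with DNase I. All animals were 8-week-old rats of the inbred Lewis strain with no treatment named, and another sample, a spatial section, was not used because its tables give no value per gene. Each group was 1 sample of tissue from an unstated number of animals, so no difference between groups has a replicate check and every interval below covers counting error only.

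Chemokines are small proteins that steer cells along gradients by binding G protein-coupled receptors. In the thymus they bring in progenitors, place thymocytes in cortex or medulla, and guide mature cells and antigen-presenting cells to the medulla. CCL2 and CCL7 act on CCR2 of monocytes, CXCL1 on CXCR2 of neutrophils, CCL11 on CCR3 of eosinophils, and CCL5 on CCR1 and CCR3 among others. CXCL10 is an interferon-induced ligand of CXCR3, CXCL13 draws CXCR5-positive B cells, and CXCL14 is a constitutive chemokine of epithelium and connective tissue. CXCL16 and CX3CL1 are made as membrane-bound proteins that ADAM10 and ADAM17 release, and they bind CXCR6 and CX3CR1.

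The stromal library held 13226 labelled cells with 131624350 UMIs (unique molecular identifiers, each a captured RNA molecule), and the thymocyte library held 8546 labelled cells with 64440495 UMIs. The median cell had 9087.5 and 3994 UMIs, and 28 labelled barcodes occurred in both libraries. The authors' label of each cell was used as deposited, and levels are UMIs of a gene per 1000000 UMIs of the label (CPM), for the 24 stromal and 21 thymocyte-library labels of at least 20 cells. Labels such as TMC1 to TMC4 and capFb (counted as mesenchymal), vSMC/PC (mural), vEC, capEC and aEC (endothelial), the TEC groups (epithelial), nmSC and MEC are given as the authors wrote them. Marker lists were checked against these names: the mural list summed to 3740 CPM in vSMC/PC, its highest label. The mesenchymal list summed to 26627 CPM in TMC2, with higher levels in capFb and TMC1. The name aaTEC2 did not hold up in the same way: the mesenchymal list was at 18562 CPM there against 994 CPM of the epithelial list. The B cell label had the most Cd79a and Pax5 of any stromal label, with 1756 and 724 UMIs. It also carried the mesenchymal list, at 4303 CPM against 1078 CPM of the B list. The part of mesenchymal RNA in the chemokine levels of these labels was not tested. The stromal Myeloid label was led by neutrophil genes, with S100a8 at 49371 CPM and S100a9 at 71122 CPM, while C1qa and C1qb were at 0 UMIs there. The stromal Thymocyte label carried the mesenchymal list at 8002 CPM, and the part of free RNA in its values was not tested.

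RefSeq windows of the GRCr8 build, from 250 bases before to 50 bases after the start site, were matched for 7 of the 10 genes. Those of Ccl7 (chr10:67513845-67514144, plus strand), Cxcl1 (chr14:17479272-17479571, minus strand) and Cxcl10 (chr14:15988816-15989115, plus strand) are printed because they held an NF-kB-type motif (GGGA, then 2 free bases, then TTCC, on either strand). Those of Cxcl13 (chr14:13917871-13918170, minus strand) and Cxcl14 (chr17:8322900-8323199, plus strand), the genes with the highest levels, held none. Capitals mark every match to that motif, to an interferon-response-type motif (GAAA, 2 free bases, GAAA), to a TATA-type motif (TATAAA) or to an AP-1-type motif (TGANTCA), each on both strands.
Ccl7: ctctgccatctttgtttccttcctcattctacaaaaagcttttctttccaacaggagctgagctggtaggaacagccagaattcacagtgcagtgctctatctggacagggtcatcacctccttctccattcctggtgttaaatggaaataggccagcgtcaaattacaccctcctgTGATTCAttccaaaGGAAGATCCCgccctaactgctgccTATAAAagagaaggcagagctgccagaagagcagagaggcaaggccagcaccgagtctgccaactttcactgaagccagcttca
Cxcl1: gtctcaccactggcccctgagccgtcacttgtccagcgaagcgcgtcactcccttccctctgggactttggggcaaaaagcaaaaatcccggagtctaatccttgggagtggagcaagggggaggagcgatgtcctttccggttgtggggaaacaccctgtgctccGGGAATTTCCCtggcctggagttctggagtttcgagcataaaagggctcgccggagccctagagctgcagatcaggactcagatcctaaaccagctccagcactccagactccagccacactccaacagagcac
Cxcl10: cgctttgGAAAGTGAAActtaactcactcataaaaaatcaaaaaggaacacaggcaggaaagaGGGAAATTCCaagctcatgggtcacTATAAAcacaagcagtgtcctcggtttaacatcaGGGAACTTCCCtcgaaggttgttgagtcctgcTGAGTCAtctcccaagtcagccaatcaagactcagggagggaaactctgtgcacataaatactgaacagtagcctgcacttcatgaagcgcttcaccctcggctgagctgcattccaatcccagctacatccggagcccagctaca
Cxcl13: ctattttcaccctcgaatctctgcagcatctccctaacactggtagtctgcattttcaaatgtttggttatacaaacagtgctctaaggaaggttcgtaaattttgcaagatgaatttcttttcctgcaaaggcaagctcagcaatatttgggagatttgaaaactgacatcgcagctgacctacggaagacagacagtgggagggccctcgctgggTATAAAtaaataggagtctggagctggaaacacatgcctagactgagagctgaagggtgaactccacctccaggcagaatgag
Cxcl14: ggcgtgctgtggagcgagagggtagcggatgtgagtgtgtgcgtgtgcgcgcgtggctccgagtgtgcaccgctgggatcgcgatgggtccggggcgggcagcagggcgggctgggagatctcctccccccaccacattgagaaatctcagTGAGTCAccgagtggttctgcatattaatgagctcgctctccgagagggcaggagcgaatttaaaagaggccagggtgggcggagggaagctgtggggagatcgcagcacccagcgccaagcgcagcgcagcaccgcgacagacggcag

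In the Ccl7 window the NF-kB-type match began 59 bases before the start site, on the minus strand, with a TATA-type match at 34 bases and an AP-1-type match at 73 bases. The Cxcl1 window held overlapping NF-kB-type matches at 84 and 83 bases, 1 on each strand. The Cxcl10 window held 3 NF-kB-type matches, at 187, 128 and 127 bases, of which the last 2 overlap. It was also the only member window with an interferon-response-type match, at 243 bases. NF-kB-type matches occurred in 1.30% of all 33469 windows of this length, interferon-response-type in 3.92%, TATA-type in 14.2% and AP-1-type in 7.33%. These motifs were chosen after expression values of the members were known, and a match describes letters, not a bound site.

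Every member was detected in the stromal library, and the levels fell into distinct patterns. Ccl2 and Ccl7 were highest in the mesenchymal labels TMC3 and TMC4 and in mural cells, and Cxcl1 in TMC3 and mural cells. Cxcl14 and Cx3cl1 were highest in mesenchymal cells, Cxcl10, Cxcl13 and Ccl5 in medullary epithelial labels, and Cxcl16 across the epithelium. Ccl11 was spread over TMC2 and TMC1, with its highest levels in 2 small labels. Mesenchymal labels, which made up 62.1% of labelled cells, held between 72.7% and 92.0% of the UMIs of Ccl2, Ccl7, Ccl11, Cxcl1, Cxcl13, Cxcl14 and Cx3cl1. They held 58.2% of the Cxcl10 UMIs, 37.0% of the Cxcl16 UMIs and 3.42% of the Ccl5 UMIs. The highest label was at least 3-fold above the next for 2 of 10 members, Cxcl14 and Cxcl10, beside 9.35% of the 13149 genes with at least 20 UMIs in their highest label. Without the 1 richest cell of each label, Cxcl14 alone kept such a lead.

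**Figure D1:**
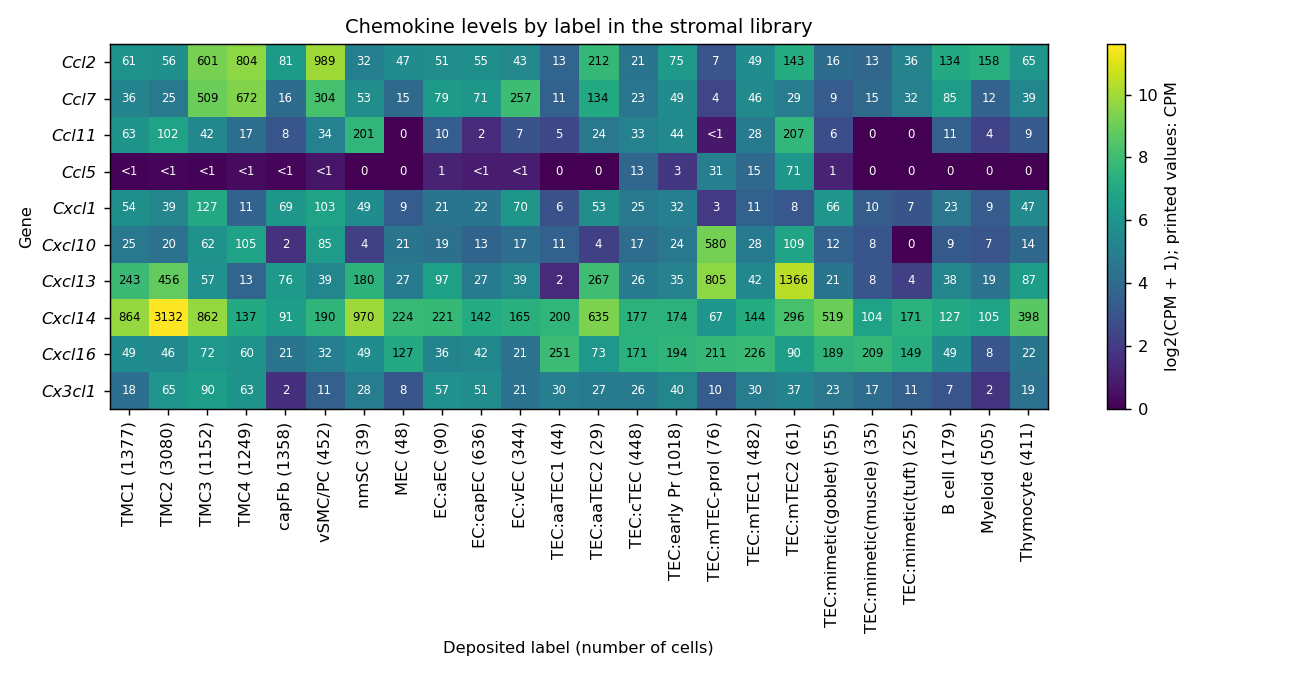
Level of each chemokine (rows) in each stromal label of at least 20 cells (columns, number of cells in brackets), in CPM from summed UMIs, coloured as log2(CPM + 1). Cxcl14 reached 3132 CPM in TMC2, Cxcl13 reached 1366 CPM in mTEC2, and Ccl5 was at or near 0 outside the epithelial labels.

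Ccl2, the main monocyte attractant of this set, stood at 989 CPM in vSMC/PC (95% Poisson interval 956 to 1023), 804 CPM in TMC4 (788 to 821) and 601 CPM in TMC3 (586 to 616). The next labels were aaTEC2 at 212 CPM, Myeloid at 158 CPM and mTEC2 at 143 CPM, and all others were under 135 CPM. Mural cells were 1.23-fold above TMC4 (1.18 to 1.28), and of the 23 pairs of neighbours in the order, 18 had a ratio interval that holds 1. The share of cells with a Ccl2 UMI ran the other way, at 75.4% in TMC4 and 50.7% in vSMC/PC, beside 8.27% in the Thymocyte label. Median depths were 8717, 6446 and 2648 UMIs, and at 1000 UMIs per cell the shares were 38.5%, 30.9% and 4.13%. In mTEC2, 1 cell held 80 of 125 Ccl2 UMIs, with the epithelial list at 5077 CPM and the myeloid list (Cd68, Lyz2 and others) at 2597 CPM. In the B cell label 1 cell held 173 of 384, with the mesenchymal list at 7650 CPM and the B list at 0.

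Ccl7, a second CCR2 ligand whose gene lies between Ccl2 and Ccl11 in GRCr8, was highest in TMC4 at 672 CPM (657 to 687) and TMC3 at 509 CPM (495 to 523). It followed at 304 CPM in vSMC/PC (285 to 323) and at 257 CPM in the endothelial label vEC (240 to 274). A Ccl7 UMI was seen in 73.8% of TMC4 cells and 59.7% of TMC3 cells, against 6.14% of cells of the Myeloid label at a median depth of 9510 UMIs. At 1000 UMIs per cell these shares were 32.8%, 25.0% and 0.596%. Over the 24 labels, log2(CPM + 1) of Ccl2 and Ccl7 had a Pearson r of 0.78, the highest of the 45 member pairs, with all labels from 1 library.

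The proportion of the 2 transcripts differed between labels. vEC had 156 Ccl2 and 928 Ccl7 UMIs, a ratio of 0.168 (0.141 to 0.199), and capEC had 243 and 314, a ratio of 0.774 (0.652 to 0.918). TMC3 sat at 1.18 (1.14 to 1.22), and the interval of TMC4 was 1.16 to 1.23. Mural cells had 3.26 Ccl2 UMIs per Ccl7 UMI (3.04 to 3.50), capFb 4.99 (4.36 to 5.72) and the Myeloid label 13.4 (10.5 to 17.3). vEC and Myeloid lay at opposite ends of the order, and neither interval reached that of TMC3 or TMC4. In vEC, the Endo-1 cluster had 287 CPM of Ccl7 and the Endo-2 cluster 120 CPM.

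**Figure D2:**
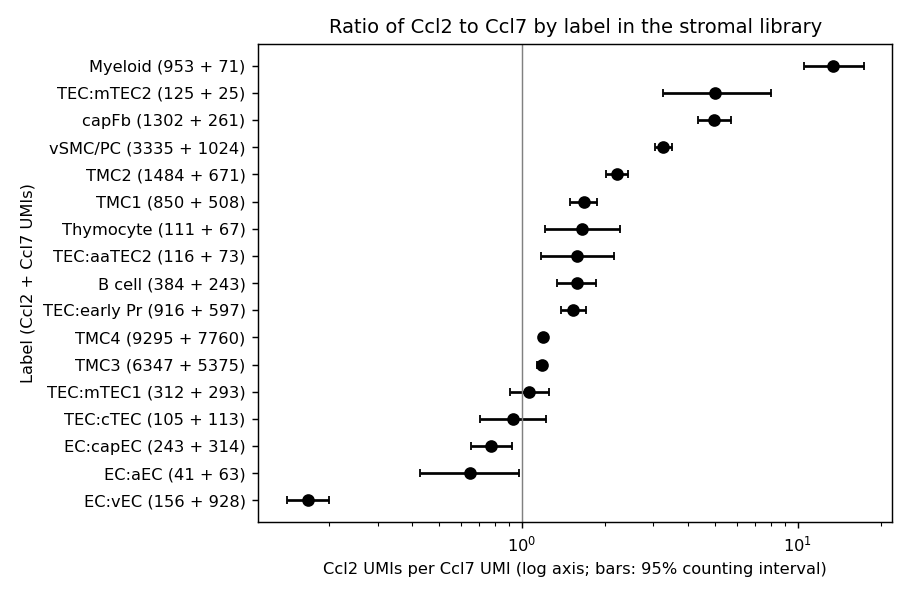
Ccl2 UMIs per Ccl7 UMI (log axis) in each stromal label of at least 20 cells with at least 100 UMIs of both genes together, with 95% counting intervals and both UMI counts in brackets. vEC, at 0.168, and Myeloid, at 13.4, lie at the ends, with TMC3 and TMC4 near 1.

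Within a label the same cells tended to carry both. In TMC3, 75.1% of 599 cells with a Ccl2 UMI also had a Ccl7 UMI, against 43.0% of 553 cells without. In TMC4 the shares were 83.0% of 942 and 45.6% of 307, and in vSMC/PC 44.5% of 229 and 12.1% of 223. At 1000 UMIs per cell the shares were 42.9% and 19.4% in TMC3, 47.4% and 23.7% in TMC4, and 27.3% and 6.75% in vSMC/PC. The share of Cxcl14-positive cells did not follow Ccl2 in this way in TMC3, at 74.1% and 77.8%. It was higher in cells with Ccl2 in TMC4, at 35.9% and 31.6%, and in vSMC/PC, at 18.3% and 13.0%. At 1000 UMIs per cell these shares were 10.8% and 9.77% in TMC4, and 5.76% and 7.07% in vSMC/PC.

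Ccl2 in the stromal Myeloid label came to 953 UMIs in 89 of 505 cells. That label held the mesenchymal genes Col1a1, Dcn and Lum at 0.127, 0.127 and 0.107 of their level over all labelled cells, and Ccl7, Ccl11, Cxcl13, Cxcl14, Cxcl16 and Cx3cl1 at 0.0601 to 0.118 of theirs. Cxcl1 and Cxcl10 were at 0.200 and 0.206, and Ccl2 stood apart at 0.794. The 59 cells with a UMI of Csf1r, the macrophage growth factor receptor, carried 545 of the 953 UMIs, or 430 CPM against 85.5 CPM in the other 446 cells. They were deeper, with a median of 20116 against 8219.5 UMIs, and had less S100a8, at 2281 against 61875 CPM.

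Cxcl1, the neutrophil attractant, was highest in TMC3 at 127 CPM (120 to 134), then vSMC/PC at 103 CPM, vEC at 69.7 CPM and capFb at 69.2 CPM. It was carried by few cells. In TMC3 109 of 1152 cells, or 9.46%, held all 1341 UMIs, up to 110 in 1 cell, and the Myeloid label had a share of 2.97%. At 1000 UMIs per cell the shares were 4.47% and 0.398%. The Thymocyte label, however, had Cxcl1 at 46.6 CPM, near the 45.6 CPM of all labelled cells. Only 4 of the 23 other labels had a ratio to the Thymocyte label whose interval lay above 1. TMC3 lay 1.23-fold above vSMC/PC (1.10 to 1.39) by summed UMIs, and this order turned to 0.944 by the mean of the cells' CPM.

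Cells with a Cxcl1 UMI had more transcripts of immediate-early genes (Fos, Jun, Egr1 and 7 more, which rise within minutes to hours of a stimulus) in all 11 labels with at least 20 cells on each side. The median ratio was 2.26 and the range 1.24 to 5.19. In TMC3 the list summed to 15344 CPM in cells with and 2957 CPM in cells without Cxcl1, a ratio of 5.19 (5.09 to 5.29), and to 6.67 at 1000 UMIs per cell. The NF-kB target list (Nfkbia, Icam1, Il6 and 7 more, among them Cxcl2, the neighbour of Cxcl1) was higher in cells with Cxcl1 in 11 of 11 labels, by a median of 2.12-fold. In TMC3 it stood at 3916 CPM in cells with and 856 CPM in cells without Cxcl1, whose median depths were 10131 and 7997 UMIs. The interferon list, by contrast, had a median ratio of 1.05 and lay above 1 in 7 of 11 labels. Ccl2 and Ccl7 showed a smaller difference of the same kind for the NF-kB list, with median ratios of 1.63 and 1.58, above 1 in 13 of 14 labels each. By label, the immediate-early list stood at 12274 CPM in vEC, the highest of the labels, and at 1327 CPM in MEC, the lowest.

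**Figure D3:**
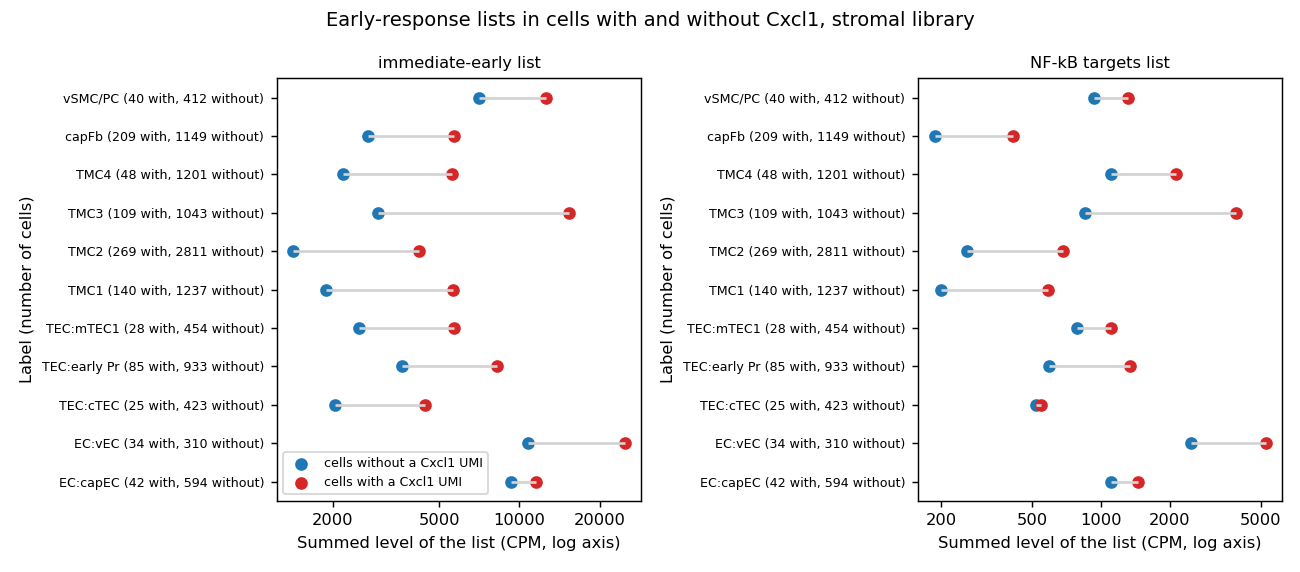
Summed level of the immediate-early list (left) and the NF-kB target list (right), in CPM on a log axis, in cells with (red) and without (blue) a Cxcl1 UMI, for the 11 stromal labels with at least 20 cells on each side. Red lies to the right of blue in every label, most widely in TMC3 and least for the NF-kB list in cTEC.

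Ccl11, the eosinophil attractant, was spread over mesenchyme and epithelium. In TMC2 it stood at 102 CPM (98.5 to 106) and was carried by a minority of cells, with 2730 UMIs in 15.5% of 3080 cells. In TMC1 it stood at 62.9 CPM. Epithelial labels held 19.1% of its UMIs, with 539 in early Pr at 44.4 CPM, 177 in mTEC1 and 164 in cTEC. The highest label by level was mTEC2 at 207 CPM, next to nmSC at 201 CPM, a ratio of 1.03 (0.760 to 1.41) that does not separate them. Of the 181 UMIs of mTEC2, 1 cell held 124 and another 53, and without both cells the label stood at 4.90 CPM. In nmSC 1 of 39 cells held 33 of 57 UMIs. The richest mTEC2 cell carried the epithelial list at 5843 CPM and the mesenchymal list at 58.7 CPM.

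Cxcl14 was the most abundant of the 10, with 83569 UMIs in TMC2 at 3132 CPM (3110 to 3153). It was also the most even, since 95.1% of the 3080 cells had a UMI and the richest cell held 0.312% of them. nmSC, TMC1 and TMC3 followed at 970 CPM, 864 CPM and 862 CPM, and TMC2 was 3.23-fold above nmSC (2.87 to 3.65). The ratio became 5.06 without the richest cell of each label, since 1 nmSC cell held 108 of 275 UMIs. TMC4 was at 137 CPM and capFb at 90.6 CPM, so the mesenchymal labels spanned a wide range. The Myeloid label had Cxcl14 in 16.8% of cells and the Thymocyte label in 15.3%, at 105 and 398 CPM. At 1000 UMIs per cell, TMC2 stood at 79.0%, Myeloid at 4.97% and Thymocyte at 10.3%. Only 6 of the 23 other labels had a higher Cxcl14 level than the Thymocyte label.

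Cx3cl1, the membrane-bound ligand of CX3CR1, was low and even: 89.8 CPM in TMC3 (84.1 to 95.7), 65.2 in TMC2, 62.7 in TMC4 and 57.4 in aEC. No cell of TMC3, TMC2 or TMC4 held more than 9 UMIs. TMC3 was 1.38-fold above TMC2 (1.27 to 1.49). It had a UMI in 46.6% of its cells against 2.57% in the Myeloid label, and in 8.59% against 0 at 1000 UMIs per cell. capFb, in contrast to the TMC labels, had 1.92 CPM. The Cx3cl1 gene lies between Ccl17 and Ccl22 in GRCr8.

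Cxcl13, the B-cell attractant, was highest in mTEC2 at 1366 CPM (1290 to 1446) and mTEC-prol at 805 CPM (758 to 854), ahead of TMC2 at 456 CPM (448 to 465) and TMC1 at 243 CPM (235 to 251). mTEC2 lay 1.70-fold above mTEC-prol (1.56 to 1.84). By number of UMIs the mesenchyme led, with 12176 in TMC2 against 1196 in mTEC2, because mTEC2 had 61 cells and TMC2 had 3080. A UMI was present in 67.2% of mTEC2 cells, 50.0% of mTEC-prol cells and 49.7% of TMC2 cells, against 8.12% in the Myeloid label. At 1000 UMIs per cell these were 45%, 31.6%, 22.6% and 0.994%. In contrast, mTEC1 and cTEC had 41.8 and 26.5 CPM.

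Cxcl10, the interferon-induced ligand, stood at 580 CPM in mTEC-prol (540 to 622), 5.34-fold above mTEC2 at 109 CPM (4.32 to 6.68), and at 105 CPM in TMC4. 1 mTEC-prol cell held 495 of the 793 UMIs, and without it the label fell to 222 CPM and its ratio to mTEC2 to 2.53. That cell carried the epithelial list at 1837 CPM and the myeloid list at 1984 CPM, the latter from 1 gene. It also held 102 UMIs of Cxcl13 and 20 of Ccl5. A Cxcl10 UMI was present in 44.3% of mTEC2 and 38.2% of mTEC-prol cells against 6.14% of Myeloid cells, and at 1000 UMIs per cell in 15.0%, 10.5% and 1.19%. In TMC1, 1 cell held 259 of 346 UMIs. Cells with Cxcl10 had more of the interferon list (Isg15, Mx1 and others, among them Cxcl9 and Cxcl11) in 13 of 13 labels, with a median ratio of 1.82. Without Cxcl9 and Cxcl11, an alternative chosen after seeing the data, the list was higher in 12 of 13 labels with a median ratio of 1.72. mTEC2 then turned from 1.00 (0.900 to 1.12) to 0.734 (0.624 to 0.863), while TMC1 stood at 5.95. The NF-kB list was also higher in cells with Cxcl10 in 12 of 13 labels, with a median ratio of 1.38.

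The neighbours of Cxcl10 in GRCr8 are Cxcl11 and Cxcl9, both CXCR3 ligands. Cxcl11 was highest in mTEC2 at 526 CPM and mTEC-prol at 178 CPM, and Cxcl9 in TMC2, TMC3 and TMC4 at 382, 365 and 322 CPM. In mTEC-prol, Cxcl11 was present in 44.8% of 29 cells with Cxcl10 and 2.13% of 47 cells without, and Cxcl9 in 69.0% and 23.4%. In TMC4, Cxcl9 was present in 65.2% of 207 cells with Cxcl10 and 44.0% of 1042 without, and Cxcl11 in 0 of the 207. Cells with Cxcl10 thus held Cxcl9 more often in both labels, while Cxcl11 accompanied it in mTEC-prol and was near 0 in TMC4. Median depths of mTEC-prol cells with and without Cxcl10 were 21894 and 13184 UMIs. At 1000 UMIs per cell the Cxcl11 shares were 25% and 2.94%, the former of only 8 cells that still had a Cxcl10 UMI.

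Ccl5 was the rarest member, with 322 UMIs in the labelled stroma, of which 93.5% were in epithelial labels. It stood at 70.8 CPM in mTEC2 (54.3 to 90.8), 30.7 in mTEC-prol, 14.6 in mTEC1 and 13.4 in cTEC, and at 0 UMIs in the B cell, Myeloid and Thymocyte labels, for which the upper bound of the Myeloid interval was 0.611 CPM. mTEC2 was 2.31-fold above mTEC-prol (1.53 to 3.50), but 1 mTEC2 cell held 44 of 62 UMIs and the level without it was 21.1 CPM. That cell carried the cytotoxic list (Nkg7, Gzmb and 4 more) at 6487 CPM beside the epithelial list at 2268 CPM and the T list at 0. Its myeloid list was at 2540 CPM, from 1 gene. Only Gzmb and Nkg7 made up the cytotoxic sum, since mTEC2 had 245 and 78 UMIs of them and 0 of the other 4 genes. In mTEC1 the TEC-d cluster had 22.4 CPM and the TEC-b cluster 3.79 CPM.

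Cxcl16, the ligand of CXCR6, was the most widely shared in the epithelium: 251 CPM in aaTEC1 (213 to 293), 226 in mTEC1, 211 in mTEC-prol, 209 in the muscle-mimetic label, 194 in early Pr and 171 in cTEC. Of its neighbouring pairs in the order, 20 of 23 had a ratio interval holding 1, so the top of the order is not resolved. It was present in 88.6% of aaTEC1 and 83.4% of early Pr cells against 5.94% of the Myeloid label, and at 1000 UMIs per cell in 25.6%, 18.9% and 0.596%. Richest cells held at most 16 UMIs in these labels. All 23 other labels had a higher Cxcl16 level than the Myeloid label, at 7.62 CPM. Cxcl16 and Ccl2 had a Pearson r of -0.48 over the 24 labels of this library, the lowest of the member pairs.

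**Figure D4:**
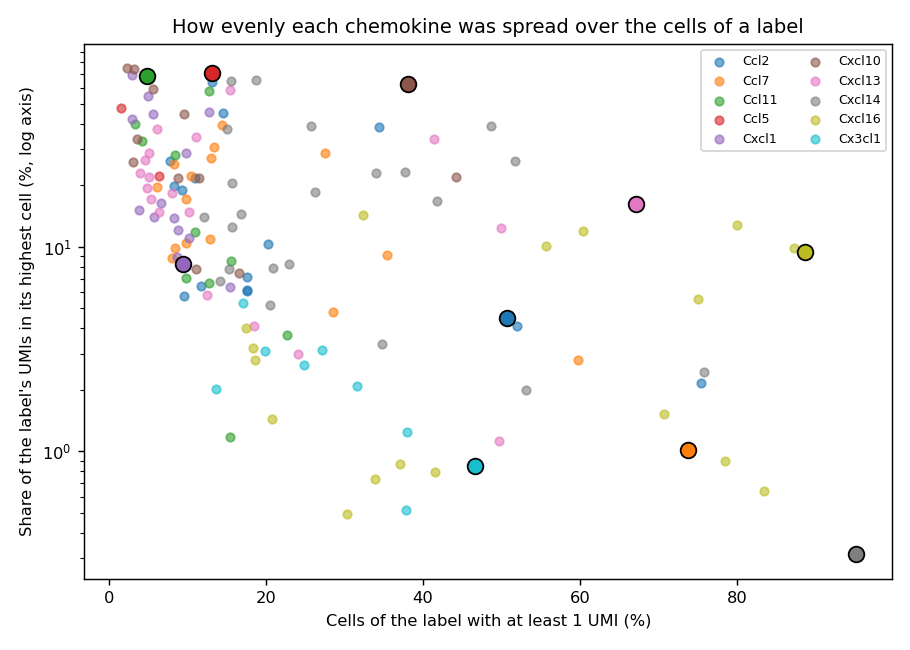
Share of cells with a UMI (x axis, %) against the share of the label's UMIs in its richest cell (y axis, %, log axis) for each chemokine and stromal label with at least 50 UMIs and 20 cells. Large outlined points are each gene's highest label, where Cxcl14 in TMC2 lies at 95.1% and 0.312%, and Ccl11 in mTEC2 at 4.92% and 68.5%.

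Clusters inside a label differed in several members, and in their mesenchymal RNA. In early Pr, the 120 cells of cluster TEC-c had Ccl2 at 179 CPM, Ccl7 at 185, Cxcl13 at 162 and Cxcl14 at 714, against 52.9, 18.0, 7.52 and 55.3 in the 878 cells of TEC-b. The mesenchymal list stood at 12419 CPM in TEC-c and 391 CPM in TEC-b, and the median depth at 18540.5 and 10626.5 UMIs. In vEC, Cxcl13 was 203 CPM in the 60 Endo-2 cells and 2.37 CPM in the 284 Endo-1 cells, with the mesenchymal list at 10773 and 357 CPM. Other members did not follow: in early Pr, Ccl11 stood at 42.3 CPM in TEC-c and 45.8 CPM in TEC-b, Cxcl1 at 30.2 and 31.6 CPM, and Cxcl16 at 127 and 210 CPM. In vEC, Ccl7 and Cxcl1 were lower in Endo-2, at 120 and 7.52 CPM, than in Endo-1, at 287 and 83.7 CPM. The part of mesenchymal RNA in these levels was not tested.

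The genes whose levels over the 24 labels were most like each member (Pearson r on log2(CPM + 1), 13176 named genes considered) were led by Slc5a9 for Ccl5 at 0.95, Hs6st1 for Cxcl16 at 0.94 and Il1r2, a decoy receptor for interleukin 1, for Cxcl13 at 0.91. Dpep1 for Cxcl14 and Itga1, an integrin subunit, for Ccl7 followed at 0.87 and 0.86. Igdcc3 and Des (desmin, of muscle-type filaments) were nearest to Ccl2 at 0.83, and Urgcp to Ccl11 at 0.82. C1qtnf2 for Cxcl1 stood at 0.80, Cemip2 for Cx3cl1 at 0.79 and Lbhd2 for Cxcl10 at 0.76. Of the 30 genes so named, 9 were named again by Spearman's rho and 10 with labels of at least 50 cells.

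Signalling receptors of these ligands were scarce in the sorted stroma. Of 12 receptors, atypical ones included, 6 had at least 20 UMIs in their highest label, and 5 of these led the next label by at least 3-fold, the rule that 9.35% of genes met. Ccr2 had 152 of its 159 UMIs in the Myeloid label, at 25.2 CPM, and Cxcr2 had 124 of 131 there, at 20.5 CPM. Ccr1 had 22 of 25 UMIs there, 3.47-fold above the B cell label (1.04 to 18.1) with its 2 UMIs set at 3. Cxcr5 was at 13.0 CPM in vEC, 12.6 in mTEC2, 10.8 in capEC and 8.16 in the Thymocyte label, neighbours whose ratio intervals all held 1, against 0.663 CPM in the Myeloid label. Cxcr1 had 0 UMIs in the stroma, and Ccr3, Cxcr3, Cxcr6 and Cx3cr1 had between 3 and 34.

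The atypical receptors, which take up chemokines without G-protein signalling, were abundant and peaked in different labels. Ackr1, which binds CCL2, CCL7, CCL5 and CXCL1 among others, reached 421 CPM in vEC (400 to 443), 8.53-fold above nmSC (5.07 to 15.6), with a UMI in 78.2% of cells. Ackr2, a scavenger of inflammatory CC chemokines, reached 87.1 CPM in capFb (82.6 to 91.8), 3.66-fold above aaTEC2 (2.13 to 6.89), in 55.4% of cells. In the Myeloid label Ackr1 was seen in 2.97% and Ackr2 in 1.58% of cells, and at 1000 UMIs per cell Ackr1 stood at 31.8% in vEC and Ackr2 at 8.32% in capFb. Dpp4, a protease that trims chemokines, was highest at 820 CPM in capFb and 706 CPM in MEC. Adam10, a sheddase of CXCL16 and CX3CL1, was highest in vEC and capEC, at 202 CPM in each, and lowest in TMC2 at 39.4 CPM.

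In the thymocyte library most UMIs of each member except Ccl5 were in the B+myeloid label, which had 170 cells and 2390426 UMIs. It was the highest label of at least 20 cells for all 10 members, as it was for 25.0% of genes tested. Cxcl16 led there with 496 UMIs, 207 CPM (190 to 227), followed by Cxcl10 with 119, Ccl2 with 99, Cxcl14 with 79 and Cxcl13 with 54. The other 24 labels pooled had 8376 cells and 62050069 UMIs. They held 166 UMIs of Ccl5, against 20 in B+myeloid, and 125 of Cxcl16. They also held 5 of Cxcl10, 3 of Cxcl13, 1 each of Ccl2, Cxcl14 and Cx3cl1, and 0 of Ccl7, Ccl11 and Cxcl1. Cxcl16 was 103-fold higher in B+myeloid than in the others pooled (84.5 to 126), and Cxcl10 618-fold (257 to 1938). With the 0 UMIs of the other labels set at 3, Ccl7, Ccl11 and Cxcl1 were at least 173-fold, 208-fold and 199-fold higher, and the counting intervals of these ratios began at 51.3, 63.1 and 60.1. All 9 members with at least 20 UMIs there were at least 3-fold above the pooled others, beside 22.3% of 9693 genes. The lowest of these ratios was that of Ccl5, at 3.13 (1.86 to 4.99). Against the next single label, 6 of 9 led by 3-fold, beside 11.8% of 10010 genes, with a next label under 3 UMIs set at 3 UMIs.

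**Figure D5:**
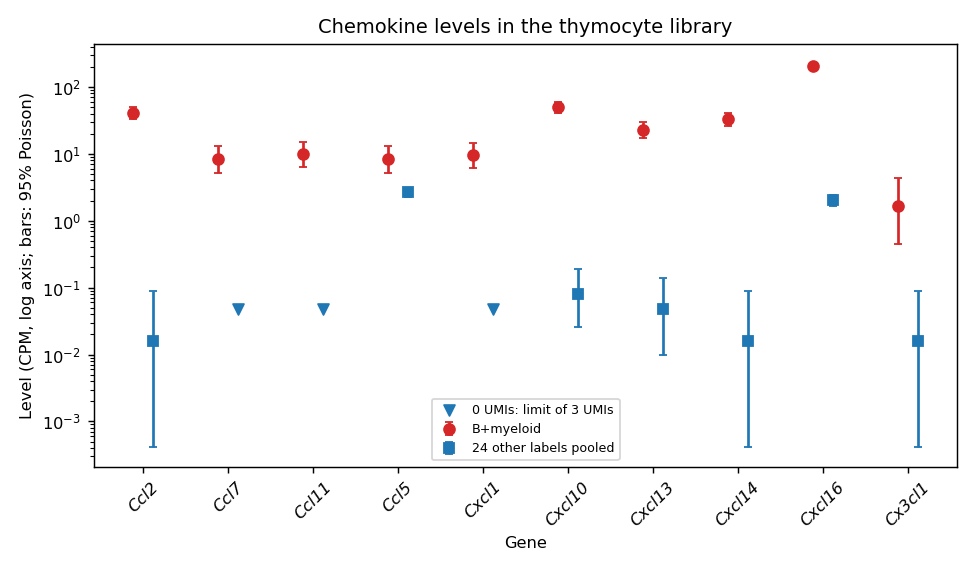
Level of each chemokine (CPM, log axis, bars show 95% Poisson intervals) in the B+myeloid label (red circles) and in the 24 other labels pooled (blue squares, or triangles at the limit of 3 UMIs where none was seen) of the thymocyte library. Cxcl16 is highest at 207 CPM, and Ccl5 is the member with the smallest gap, at 8.37 against 2.68 CPM.

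Most of these levels came from a few cells of different kinds. Cxcl16 was broad, in 84 of 170 cells, and stood at 352 CPM in the 91 cells with a UMI of C1qa, C1qb or Csf1r against 60.8 CPM in the other 79. Cxcl13 had 53 of its 54 UMIs in those 91 cells, 35 of them in 1 cell whose myeloid list was at 21261 CPM. Cxcl14 had 64 of 79 UMIs in 1 cell, which also held 22 of the 24 Ccl11 UMIs and 9 of the 23 Cxcl1 UMIs and carried the mesenchymal list at 19196 CPM and the myeloid list at 41.2 CPM. The cell with 48 of the 99 Ccl2 UMIs held 9 of the 20 Ccl7 UMIs, with the mesenchymal list at 9639 CPM and the myeloid list at 0. The 91 cells with C1qa, C1qb or Csf1r held 41 of the 99 Ccl2 UMIs, 11 of the 20 Ccl7 UMIs and 74 of the 119 Cxcl10 UMIs, but none of Cxcl14, Ccl11, Cxcl1 or Ccl5. Of these 74 Cxcl10 UMIs, 62 were in 1 cell whose myeloid list was at 4915 CPM, and only 6 of the 91 cells had any. Of the 20 Ccl5 UMIs, 17 were in 1 cell with the T list at 3404 CPM and the myeloid list at 537 CPM. The 44 cells with a UMI of the B list held 0 UMIs of Ccl5. Without the 1 richest cell of each label, 3 members still had 20 UMIs and 1 of them led by 3-fold.

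Ccl5 and Cxcl16 had more than 5 UMIs outside B+myeloid, and the other members had 0 to 5. Ccl5 had 162 UMIs in the NKT label of 18 cells, 83 in 1 cell and 79 in another, and 4 in the remaining labels outside B+myeloid. The richer of these NKT cells carried the cytotoxic list at 3976 CPM, and its 35 UMIs of the myeloid list were all Tyrobp, which natural killer cells also express. Cxcl16 had 34 UMIs in DP-P, 22 in Mature cycling T at 26.0 CPM and 15 in DP at 0.793 CPM. A Cxcl16 UMI was present in 36.4% of the 33 Mature cycling T cells against 0.250% of the 5202 DP cells, at median depths of 23597 and 3205.5 UMIs, and at 1000 UMIs per cell in 0 of the former. NKT was under the 20 cells asked of a label and took no part in the ranking.

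The receptors in thymocytes were thinly but differently spread. Cxcr5, the receptor of CXCL13, had 111 UMIs in DP at 5.87 CPM and 39 in B+myeloid at 16.3 CPM. Cxcr6, the receptor of CXCL16, had 71 UMIs in DP at 3.75 CPM and 7 in Treg at 22.1 CPM. Cxcr3 had 25 UMIs in B+myeloid at 10.5 CPM and 12 in all other labels together. Among those other labels, it was seen in 4 of 18 NKT cells and 4 of 37 Treg cells. Ccr2 was at 47.3 CPM in B+myeloid, with 1 UMI in all other labels together, and Ccr1 was at 13.4 CPM there, also with 1 UMI elsewhere.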

How the data were processed

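Droplet single-cell RNA was measured in 1 stromal and 1 thymocyte library. The deposited matrices hold UMI counts per gene and barcode, which the authors made, per the file headers, in Cell Ranger 8.0.0. Beyond that, the submitters' processing notes name Seurat 5.3.0 and the build mRatBN7.2, with no role given. The authors' cell tables hold labels and, per the file headers, the percent of mitochondrial UMIs, which was not used to filter. Each cell took its projected label, or its initial cluster where it had none. The spatial section was not used because its tables hold no value per gene.

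Counts were summed per label and divided by the label's total (CPM), with exact Poisson intervals for levels, exact Clopper-Pearson intervals for shares and exact conditional intervals for ratios, all at 95% and covering counting error only. With 1 sample per group no test was made. A lead was at least 3-fold with at least 20 UMIs in the highest label, and a next label under 3 UMIs was set at 3. Cells were also thinned to 1000 UMIs, leaving out shallower cells, and no doublet caller was run. Computation used pandas 2.3.3, NumPy 2.4.6 and SciPy 1.17.1 under Python 3.11.15, with plots from matplotlib 3.10.9, and the statistics were tested on simulated data.

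The members, lists and motifs were chosen with earlier results of these data known. The text names all 10 members, their receptors (12 were measured, of which 1 is not reported here), list genes with at least 20 UMIs in a label, and the genes most like each member in pattern (up to 3, leaving out identifiers without a symbol). Alternatives were other totals, cell filters, label sizes, averages, rank correlation and the removal of the richest cell. Removing the 2 richest cells, removing clusters TEC-c and Endo-2, leaving chemokines out of the interferon and NF-kB lists, and pooling the other thymocyte-library labels were chosen after seeing the data.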

Additional observations from a re-analysis of the deposited data

Results flagged for a closer look

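The stromal library held 2934 barcodes without a label, with 8663291 UMIs, and all 10 chemokines were detected in them. Ccl5 stood at 31.3 CPM there against 2.45 CPM in labelled cells, and 1 barcode held 213 of the 271 UMIs. That barcode had 7188 genes and the epithelial list at 10428 CPM. The 67 barcodes with more genes than any labelled cell held 227 of the 271. Cxcl10 stood at 38.0 CPM against 36.3 in labelled cells, and Cxcl13 at 165 against 167. Ccl2 was at 119 CPM against 199, Ccl7 at 72.7 against 140, and Cxcl16 at 62.6 against 76.1. Cxcl14 was at 208 CPM against 891, Cx3cl1 at 17.8 against 38.6, Cxcl1 at 15.6 against 45.6, and Ccl11 at 12.7 against 43.7. No group of these barcodes is named by the authors, and no explanation was tested.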

How the results depend on the processing

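No paired analysis was possible because the stroma and the thymocytes were 1 library each. Of 228 recomputed values, 34 of those that answer a comparison stayed and 11 moved, and of the levels and ratios of single members 128 stayed, 54 moved and 1 reversed. The reversed value, the TMC3 to vSMC/PC ratio of Cxcl1, was 0.944 by the mean of the cells' CPM. Members leading by 3-fold in the stroma numbered 1 of 7 tested at 1000 UMIs per cell, 1 without the richest cell of each label and 1 without the 2 richest. In the thymocyte library they numbered 0 of 1 tested at 1000 UMIs per cell, and 1 of 3 tested without the richest cell or the 2 richest. Receptor leads at 1000 UMIs per cell were 1 in the stroma, of 2 tested, and 0 in thymocytes, with 0 tested. Members seen in at least 50% of the cells of a label fell from 5 to 1 at 1000 UMIs per cell. Of the 30 genes named by pattern, 9 were named again by Spearman's rho and 10 with labels of at least 50 cells. The highest stromal label was kept for 7 to 10 of the 10 members over the alternatives run. Thinning leaves few UMIs for rare members, so its lower counts came with fewer genes tested.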
